A study of Mus musculus with 17 samples.

Results

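The genes described here are 8 integrin subunits whose heterodimers bind collagen, fibronectin and related matrix proteins: Itga2, Itga3, Itga5, Itgav, Itgb1, Itgb3, Itgb5 and Itgb6. They were chosen by name, with earlier results of these data known. All 8 had a row in the RNA and ribosome footprint tables, each of 20572 genes. Their values were read in mouse keratinocytes after Msi2 knockdown, together with their entries in a list of Msi2 binding peaks in 3' untranslated regions. Msi2 (Musashi-2) is an RNA-binding protein that binds UAG-containing RNA and is known as a regulator of mRNA translation and stability.

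All groups were C57BL/6 keratinocytes of neonatal skin that had become immortal spontaneously during growth on mitomycin-C-treated NIH-3T3 J2 fibroblasts and were then passaged on plain dishes without them. RNA was sequenced in 3 libraries of cells infected with a lentiviral Msi2 shRNA and in 3 libraries of cells with a scrambled shRNA, and ribosome footprints (Ribo-seq, after cycloheximide) in another 3 and 3. Infected cells of both groups were selected in puromycin at 2 ug/ml, starting 2 days after infection and for 2 days. Msi2-bound RNA was sequenced by HITS-CLIP in 5 libraries whose labels name no shRNA, from cells irradiated with UVC at 200 mJ/cm2 and an antibody to Msi2, with RNase undiluted (replicate 1) or diluted 1:20 (replicate 2, labelled Low MW, and replicate 3, labelled Hi MW), 1:50 (replicate 4) and 1:75 (replicate 5). The labels do not say that replicates are separate cultures, so p-values cover only differences among these libraries, possibly technical ones.

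Integrins are cell-surface receptors made of 1 alpha and 1 beta subunit, and the pair decides what the receptor binds. In basal keratinocytes the beta1 integrins sit at the junctions with the basement membrane and between cells, while receptors for fibronectin and provisional matrix become more abundant in wounds and in culture. The beta1 chain pairs with many alpha chains, and the alpha-v chain pairs with several beta chains.

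RNA libraries held 9221566 to 26785876 gene counts and footprint libraries 512256 to 2959625. The knockdown was visible in footprints on Msi2 itself. Msi2 had 4.53, 0 and 5.12 footprint CPM (counts scaled to a common library size with TMM factors) in the knockdown libraries, against 17.1, 16.8 and 18.3 in the control libraries. These values rest on few reads, 9, 0 and 5 counts in knockdown and 39, 50 and 13 in control libraries. The log2 fold change was -2.08 ± 0.41 (SE; edgeR's quasi-likelihood test and Benjamini-Hochberg adjustment, adjusted p = 0.000285). Msi2 RNA averaged 6.02 ± 0.796 CPM in knockdown and 7.32 ± 1.30 CPM in control libraries (SD, n = 3 each), a difference that did not pass the same edgeR test (log2 fold change -0.29 ± 0.21, adjusted p = 0.283). All 8 keratinocyte markers examined were detected, with a summed RNA level of 14540 to 16207 CPM in knockdown and 18430 to 22973 CPM in control libraries. The groups of keratinocyte marker sums did not overlap: Krt5, Krt14, Krt17 and Cdh1 fell, while Col17a1 rose.

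In RNA, 6 of the 7 members with enough reads for a test rose in the knockdown (Itga2, Itga3, Itga5, Itgav, Itgb1 and Itgb6) and 1, Itgb5, fell. In ribosome footprints 5 of 7 rose: Itga2, Itga3, Itgav, Itgb1 and Itgb6. A member is counted where edgeR's quasi-likelihood test gave a Benjamini-Hochberg adjusted p under 0.05 over all genes tested. Over all genes, 43.8% of 11117 were called in RNA (22.0% higher and 21.7% lower), and 16.1% of 8969 in footprints (8.76% higher and 7.38% lower). The median log2 fold change was 0.74 over the 7 tested members and 0.004 over all genes in RNA, and 0.66 and -0.011 in footprints. The knockdown and control libraries did not overlap for 7 of 7 tested members in RNA, where 52.9% of all genes did not overlap, and for 6 of 7 in footprints, where 31.4% did not.

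**Figure D1:**
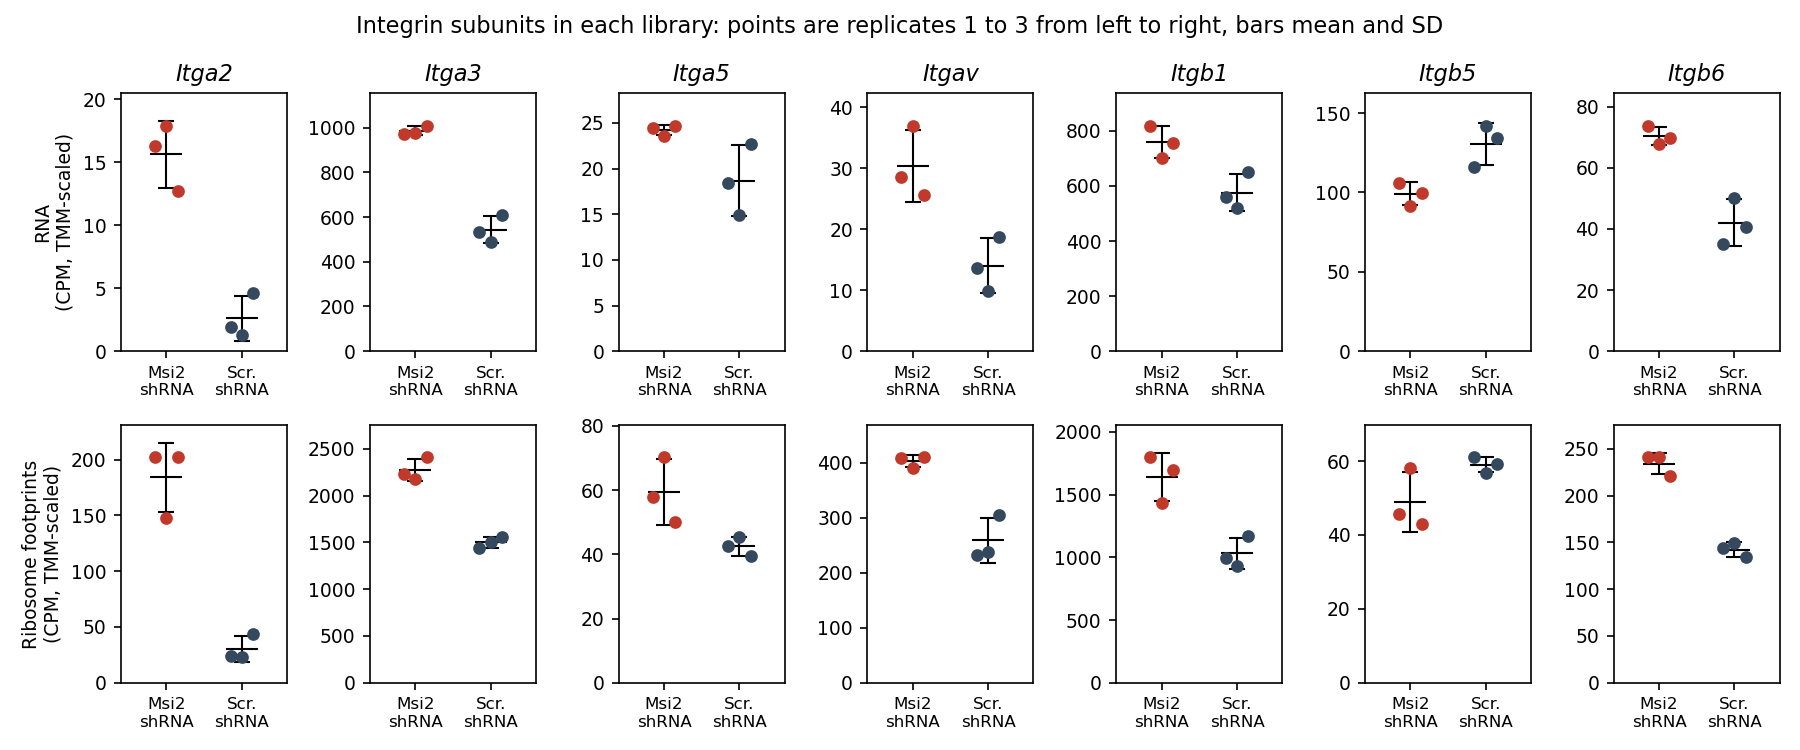
RNA (top) and ribosome footprint (bottom) level in CPM, scaled by TMM factors, of the 7 tested subunits in each library, Msi2 shRNA left and scrambled shRNA right; points are libraries and bars the mean and SD (n = 3). Itga2 stands at 12.7 to 17.9 CPM of RNA in knockdown against 1.31 to 4.62 in control libraries, and Itgb5 is the subunit whose knockdown values lie lower.

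Itga2 encodes the alpha2 chain, which with beta1 forms the main collagen receptor of epidermal keratinocytes. It changed most of the members. Its RNA stood at 16.3, 17.9 and 12.7 CPM in knockdown libraries, from 157, 223 and 338 counts. In control libraries Itga2 RNA stood at 1.90, 1.31 and 4.62 CPM, from 37, 30 and 54 counts. Every knockdown library lay above every control library, and control replicate 3 was the highest of the controls. The RNA log2 fold change was 2.69 ± 0.34 (edgeR's quasi-likelihood test and Benjamini-Hochberg adjustment, adjusted p = 7.2e-05), the 23rd highest of 11117 genes. Without control replicate 3 it was 3.28, and over all 14 alternatives it was 2.32 to 3.28.

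Footprints on Itga2 were at 202, 148 and 202 CPM in knockdown, against 24.1, 23.5 and 43.7 CPM in control libraries. The groups were far apart, and the same control replicate number was again the highest of the controls. The footprint log2 fold change was 2.78 ± 0.19 (edgeR's quasi-likelihood test and Benjamini-Hochberg adjustment, adjusted p = 1.69e-13). Among 8969 genes it was the 4th highest change and the 3rd smallest p. Itga2 lies at chr13:114833081-114932100 (RefSeq, GRCm38.p6, as for the positions of the other members below) and shares part of that span with the annotated noncoding gene Gm34845. The counts are over coding sequence, and the strand setting of the counting is not given in the sources used here.

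Itga3 (chr11:95044475-95076844) encodes the alpha3 chain, whose pair with beta1 binds laminin-332 of the epidermal basement membrane. Itga3 RNA was at 973, 975 and 1009 CPM in knockdown and at 533, 488 and 608 CPM in control libraries. Its footprints were at 2230, 2180 and 2410 CPM in knockdown, against 1445, 1500 and 1555 CPM in control libraries. Neither assay showed overlap, and the knockdown RNA libraries lay within a narrow range. The log2 fold change was 0.86 ± 0.12 in RNA (adjusted p = 5.43e-05) and 0.60 ± 0.12 in footprints (adjusted p = 0.000587), both by edgeR's quasi-likelihood test and Benjamini-Hochberg adjustment.

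Itga5 (chr15:103344286-103366791) encodes the alpha5 chain of the classical fibronectin receptor. Its RNA was at 24.4, 23.6 and 24.7 CPM in knockdown and at 18.4, 14.9 and 22.7 CPM in control libraries. The highest control lay just under the lowest knockdown library. The RNA difference passed narrowly, with a log2 fold change of 0.39 ± 0.15 (edgeR's quasi-likelihood test and Benjamini-Hochberg adjustment, adjusted p = 0.0486). The call ended in 7 of 14 alternatives. These were DESeq2 (adjusted p = 0.059), the replicate block in edgeR (0.072), and the edgeR fits without knockdown replicate 1 (0.12), 2 (0.082) or 3 (0.12) or control replicate 1 (0.13) or 2 (0.2). Without control replicate 2 the log2 fold change was 0.24.

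Footprints on Itga5 were at 57.9, 70.2 and 50.1 CPM in knockdown, against 42.6, 45.3 and 39.5 CPM in control libraries. The groups did not overlap, but the difference did not pass edgeR's quasi-likelihood test after Benjamini-Hochberg adjustment (log2 fold change 0.42 ± 0.19, adjusted p = 0.12). These values rest on 35 to 115 counts in knockdown and 28 to 135 in control libraries.

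Itgav (chr2:83722303-83806917) encodes the alpha-v chain, which forms receptors for vitronectin, fibronectin and latent TGF-beta, depending on its beta partner. Itgav RNA was at 28.5, 37.0 and 25.7 CPM in knockdown and at 13.6, 9.82 and 18.7 CPM in control libraries. Its footprints were at 408, 391 and 410 CPM in knockdown, against 233, 238 and 306 CPM in control libraries. No library of either assay crossed into the other group, and control replicate 3 came nearest to the knockdown in both. By edgeR's quasi-likelihood test and Benjamini-Hochberg adjustment the log2 fold change was 1.13 ± 0.20 in RNA (adjusted p = 0.000424) and 0.66 ± 0.13 in footprints (adjusted p = 0.000475).

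Itgb1 (chr8:128685654-128733579) encodes the beta1 chain shared by the alpha2, alpha3, alpha5 and other alpha chains. Itgb1 RNA was at 819, 703 and 755 CPM in knockdown and at 559, 519 and 650 CPM in control libraries. Its footprints were at 1797, 1430 and 1699 CPM in knockdown, against 995, 933 and 1168 CPM in control libraries. The groups were separate in both assays, with a wider gap in footprints. The log2 fold change was 0.40 ± 0.13 in RNA (edgeR's quasi-likelihood test and Benjamini-Hochberg adjustment, adjusted p = 0.018). In footprints it was 0.68 ± 0.13 (same edgeR test, adjusted p = 0.000256). The RNA call ended without knockdown replicate 1 (edgeR adjusted p = 0.11), knockdown replicate 3 (0.068) or control replicate 1 (0.089), while the footprint call held in all 15 alternatives.

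Itgb3, Itgb5 and Itgb6 encode beta chains that pair with alpha-v. Itgb3 (chr11:104608000-104670476) forms a receptor known from platelets, osteoclasts and vessels. It had 0 RNA counts in all 3 knockdown libraries, against 4, 0 and 0 in control libraries, and 1, 0 and 0 footprint counts in knockdown, against 0, 1 and 0. It was too low for a test. A floor of 3 counts corresponds to 0.113 to 0.312 CPM in the RNA and 1.01 to 6.02 CPM in the footprint libraries. Itgb3 was at or under the floor in every library but control RNA replicate 1, where its 4 counts came to 0.205 CPM against a floor of 0.154 CPM. Floors and count intervals cover counting error only.

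Itgb5 (chr16:33829665-33949338) forms a vitronectin receptor with alpha-v. Its RNA was at 106, 91.6 and 99.6 CPM in knockdown and at 116, 142 and 134 CPM in control libraries. All knockdown libraries lay below all control libraries, and the RNA fell with a log2 fold change of -0.40 ± 0.11 (edgeR's quasi-likelihood test and Benjamini-Hochberg adjustment, adjusted p = 0.0092). Footprints on Itgb5 were at 45.8, 58.2 and 43.0 CPM in knockdown, against 61.0, 56.8 and 59.3 CPM in control libraries. Here the groups overlapped, and the log2 fold change of -0.31 ± 0.18 did not pass the same edgeR test (adjusted p = 0.271).

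Itgb6 (chr2:60598292-60722603) is an epithelial subunit whose pair with alpha-v binds fibronectin and the latency peptide of TGF-beta, and it is known for its appearance in wounded epidermis. Itgb6 RNA was at 73.8, 67.8 and 69.8 CPM in knockdown and at 35.1, 50.2 and 40.8 CPM in control libraries. Its footprints were at 241, 241 and 221 CPM in knockdown, against 144, 149 and 134 CPM in control libraries. Both assays separated the groups. Its span overlaps that of the annotated noncoding gene Gm33436. The log2 fold change was 0.74 ± 0.13 in RNA (adjusted p = 0.000259) and 0.71 ± 0.14 in footprints (adjusted p = 0.000223), both by edgeR's quasi-likelihood test and Benjamini-Hochberg adjustment. Thus of the alpha-v partners 1 rose in both assays, 1 fell in RNA and 1 was near 0.

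Control replicate 3 was the highest control for 5 of the 7 tested members in RNA and 4 of 7 in footprints. Over all genes tested the corresponding shares were 37.8% and 40.8%, and over genes called higher in the knockdown 61.0% and 43.1%. In these bulk libraries fewer cells of a type and less RNA per cell cannot be told apart.

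**Figure D2:**
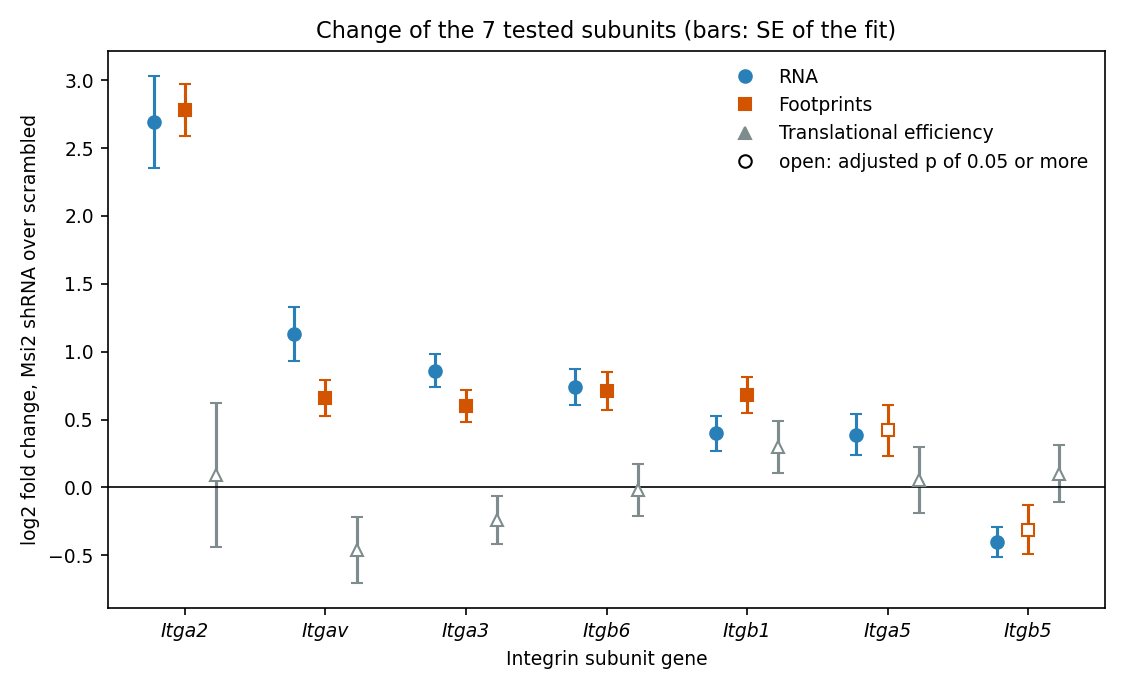
Log2 fold change of Msi2 shRNA over scrambled shRNA for RNA, ribosome footprints and translational efficiency of the 7 tested subunits; bars are the SE of the fit and open symbols did not pass an adjusted p of 0.05. RNA and footprints of Itga2 lie at 2.69 and 2.78, those of Itgb5 below 0, and every translational efficiency symbol is open.

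Translational efficiency was compared next, as the change in footprints beyond the change in RNA, in 1 model over all 12 libraries. None of the 7 tested members passed edgeR's quasi-likelihood test and Benjamini-Hochberg adjustment, where 0.203% of 10821 genes did (14 higher, 0.129%, and 8 lower, 0.0739%). None had an unadjusted p under 0.05 either, and DESeq2 and limma-voom called 0 as well. The difference farthest from 0 was that of Itgav, with a log2 change of -0.46 ± 0.24 (edgeR adjusted p = 0.458) and an approximate 95% interval of -0.93 to 0.013. Itgb1 lay on the other side, at 0.30 ± 0.19 (edgeR adjusted p = 0.549), with an interval of -0.074 to 0.67. Itga2, with few control RNA counts, had the widest error, at 0.089 ± 0.53 (edgeR adjusted p = 0.978). Itga3 was at -0.24 ± 0.18, Itga5 at 0.055 ± 0.24, Itgb5 at 0.10 ± 0.21 and Itgb6 at -0.019 ± 0.19. Without RNA control replicate 3, Itgav was called, at -0.78 (edgeR adjusted p = 0.0432), and called genes over all numbered 94 higher and 149 lower.

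The members differed widely in how many footprints they had per RNA read. In this ratio of CPM gene length cancels only where both assays count over a gene alike, which was not tested. The ratio was highest for Itgav, at 13.3 ± 1.50 in knockdown and 18.4 ± 3.76 in control libraries (SE of the ratio of means, n = 3 libraries of each assay). That placed Itgav above 99.8% of 8918 genes in both groups. Itga2 had 11.8 ± 1.62 in knockdown and 11.7 ± 5.23 in control libraries, above 99.7% and 99.4% of genes. The errors of the pair overlap, so no order between Itgav and Itga2 can be given.

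Itgb6 had 3.33 ± 0.126 footprint CPM per RNA CPM in knockdown and 3.39 ± 0.371 in control libraries. Itga3 had 2.31 ± 0.0759 and 2.76 ± 0.187, Itga5 2.45 ± 0.244 and 2.27 ± 0.288, and Itgb1 2.16 ± 0.173 and 1.79 ± 0.172, each with the knockdown first. In knockdown the errors of Itga3, Itga5 and Itgb1 overlapped, and in control libraries Itga3 lay above Itgb1 by more than the errors. Itgb5 was at the other end, at 0.494 ± 0.0516 in knockdown and 0.451 ± 0.0285 in control libraries, with 10.1% and 7.34% of genes below it. The median over all genes was 1.18 in knockdown and 1.14 in control libraries. In both groups Itgav and Itga2 lay far above the median gene and Itgb5 under it.

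**Figure D3:**
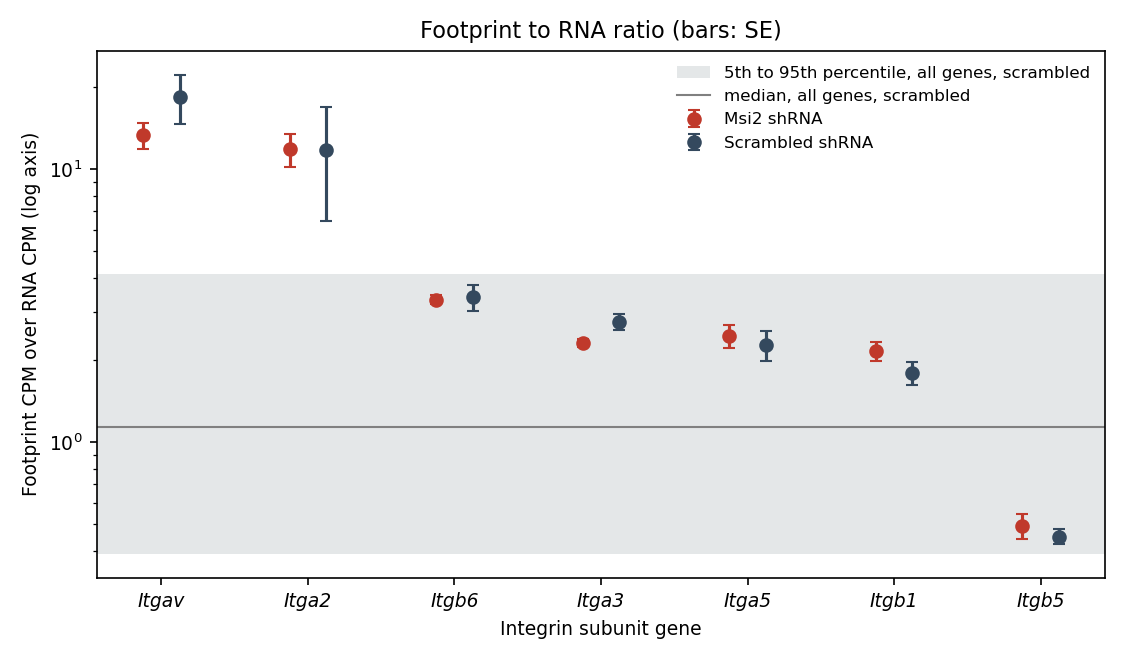
Footprint CPM over RNA CPM (log axis) of the 7 tested subunits, Msi2 shRNA left and scrambled shRNA right of each pair; bars are the SE, the grey line and band the median and the 5th to 95th percentile of 8918 genes in scrambled shRNA libraries. Itgav (13.3 in knockdown and 18.4 in control) and Itga2 (11.8 and 11.7) stand above the band, and Itgb5 (0.494 and 0.451) lies at its lower edge.

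The balance of subunits was read as the ratio of raw counts of a pair of genes in the same library, which needs no scaling between libraries. These ratios were computed after the data had been seen, carry no test, and compare groups only, since the lengths of the genes do not cancel. The share of all gene pairs whose ratios do not overlap between groups was not computed. Among single genes, 52.9% did not overlap in RNA and 31.4% in footprints. Itga2 over Itgb1 RNA was 0.0199, 0.0254 and 0.0168 in knockdown libraries and 0.00339, 0.00252 and 0.00712 in control libraries. In footprints it was 0.112, 0.104 and 0.119 in knockdown and 0.0243, 0.0252 and 0.0374 in control libraries. The knockdown mean was 4.77 times the control mean in RNA and 3.85 times in footprints, with no overlap in either, so the collagen-binding alpha chain changed more than its beta chain.

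For Itga3 and Itgav the RNA ratios separated the groups and the footprint ratios did not. Itga3 over Itgb1 averaged 1.30 ± 0.104 in knockdown and 0.944 ± 0.00944 in control RNA libraries (SD, n = 3 each), without overlap, and 1.39 ± 0.143 in knockdown and 1.46 ± 0.139 in control footprint libraries, with overlap. Itgav over Itgb1 behaved in the same way, at 0.0405 ± 0.0106 in knockdown and 0.0240 ± 0.00491 in control RNA, and at 0.247 ± 0.0238 in knockdown and 0.251 ± 0.0148 in control footprints. The Itga5 over Itgb1 ratio overlapped between groups in both assays, at 0.0320 in knockdown and 0.0322 in control RNA.

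Among alpha-v partners, Itgb5 over Itgav RNA was 3.73, 2.47 and 3.88 in knockdown and 8.50, 14.5 and 7.18 in control libraries. The same ratio in footprints was 0.112, 0.149 and 0.105 in knockdown and 0.262, 0.238 and 0.194 in control libraries. Neither assay had an overlap, and the knockdown mean was 0.334 of the control mean in RNA and 0.527 in footprints. Itgb6 over Itgav overlapped between groups in both assays, with footprint means of 0.582 ± 0.0392 in knockdown and 0.561 ± 0.106 in control libraries. The Itgb5 to Itgav ratio thus did not overlap between the groups, and the Itgb6 to Itgav ratio did. In RNA that separation goes with the calls given above, Itgav higher and Itgb5 lower.

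The Msi2 CLIP peaks were then set beside these changes. The deposited list of 3' UTR peaks held 2671 peaks in 1199 genes, of which 684 had 1 peak, and the peak height is the authors' own value in reads. The members had 28 peaks in 4 of 8 genes: 6 in Itga2, 5 in Itga3, 9 in Itgav and 8 in Itgb1. Itga5, Itgb3, Itgb5 and Itgb6 had none, and Msi2 had none. Among genes tested in footprints, 12.6% had such a peak, and 10.3% among those tested in RNA. The lowest height in the list was 10, and these shares take no account of the RNA level or 3' UTR length of a gene.

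Itgav carried the most peaks and the tallest. Its 9 peaks lay on the plus strand of chromosome 2 (mm10) over 3277 bases, covered 75.4% of that stretch and had heights of 15 to 85, summing to 330. The tallest, at chr2:83806173-83806646, had its summit 407 bases before the annotated end of the gene and held 1, 8, 19, 35 and 22 reads in CLIP replicates 1 to 5. Among the 1199 genes 27 had more peaks than Itgav and 27 a larger summed height. A further peak of height 10 at chr2:83788914-83788987, within the gene span and on its strand, was outside the 3' UTR list.

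The 8 peaks of Itgb1 adjoined each other with gaps of 1 to 7 bases and made up 1 bound stretch of 1156 bases on the plus strand at chr8:128732084-128733239, of which 97.9% was covered. All 8 are marked as subpeaks in the list, with heights of 11 to 39, so their number depends on how the stretch was split. Their reads summed to 465 and their heights to 170, and a read can count in more than 1 subpeak. A further 7 peaks of height 12 to 34 lay outside the 3' UTR list but within the gene span and on its strand, between positions 128710270 and 128726190. Whether these fell in exons or introns was not resolved here.

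Itga2 had 6 peaks on the minus strand of chromosome 13, spread over 2930 bases with 45.4% covered. The tallest, of height 46 at chr13:114833101-114833505, lay nearest to the 3' end and was higher than 90.0% of the list. The others had heights of 11 to 22. The peak of height 22 took 18 of its 29 reads from CLIP replicate 3, and without that library 2 of the 6 peaks kept at least 10 reads. Itga3 had 5 peaks, of height 12 to 20, over 2131 bases of the minus strand of chromosome 11, with 31.5% covered. Without CLIP replicate 1 or replicate 2, 3 of these 5 kept at least 10 reads. Itga2 and Itga3 had more peaks than 92.7% and 89.2% of genes with any.

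**Figure D4:**
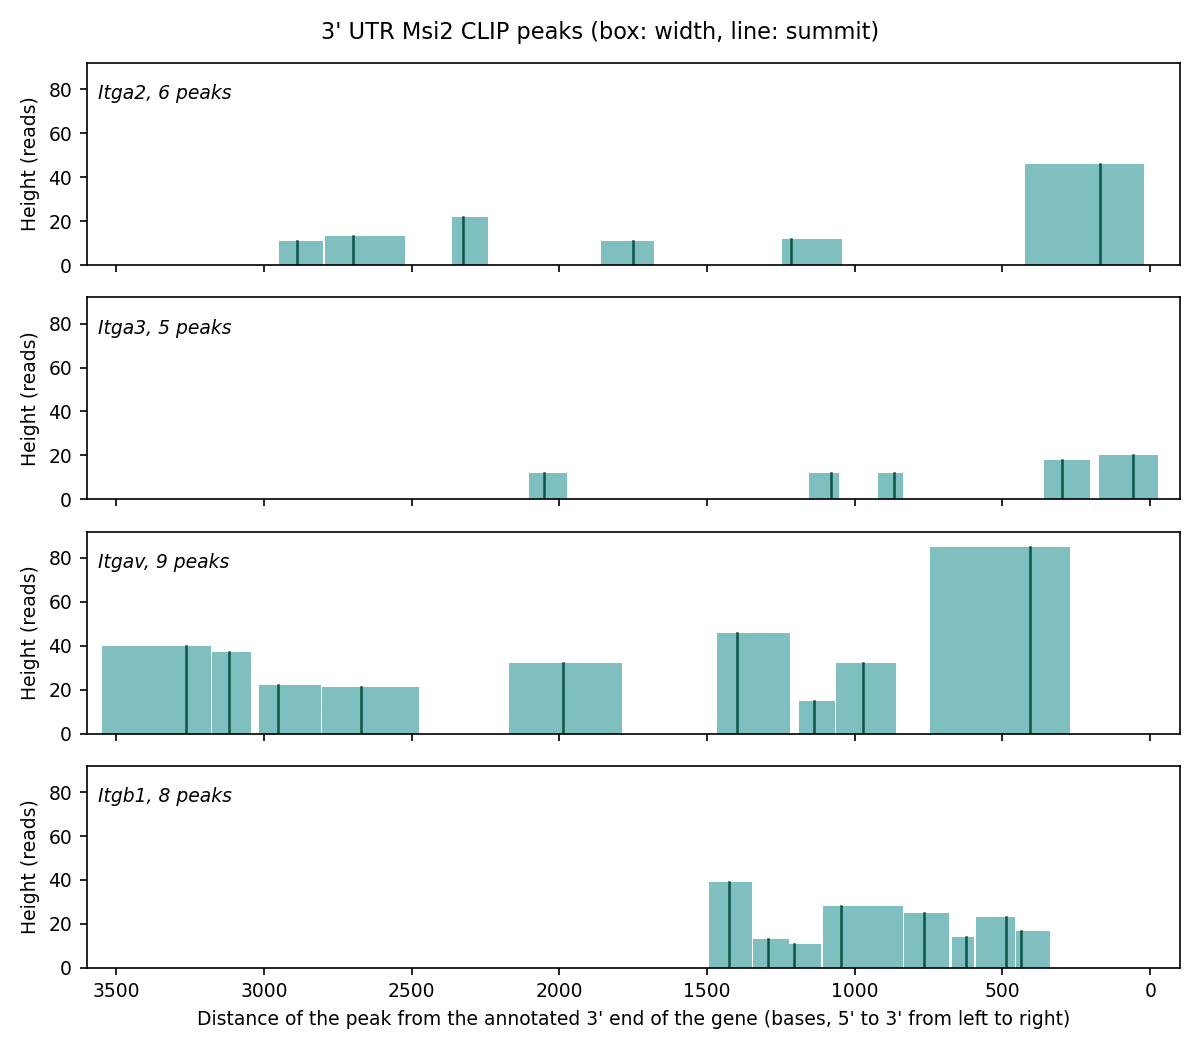
Position and height in reads of the 3' UTR peaks of Itga2, Itga3, Itgav and Itgb1, plotted by distance from the annotated 3' end of each gene; boxes give the width and lines the summit of each peak. The Itgb1 subpeaks form 1 stretch, the Itgav peaks reach a height of 85, and the Itga3 peaks stay at 12 to 20.

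The 4 genes with peaks were all called higher in footprints and in RNA. Among all genes with a 3' UTR peak, 16.6% of 1129 were higher in footprints and 30.1% of 1148 in RNA; among genes without, 7.64% and 21.1% were. Of the 3 tested members without a peak, Itgb6 rose in both assays, Itga5 rose in RNA, and Itgb5 fell in RNA. Among the 4 genes with peaks the order of change was not that of summed height. Itgav, with a summed height of 330, had a footprint log2 fold change of 0.66, and Itgb1, with 170, had 0.68. Itga2, with 115, had 2.78 and Itga3, with 74, had 0.60. Without a peak, Itgb6 had 0.71, Itga5 0.42 and Itgb5 -0.31. Summed heights take no account of RNA level or 3' UTR length, and a link between height and change was not tested.

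Across the CLIP libraries the shares of 3' UTR peak reads were even for Itgb1 and Itgav. Itgb1 held 0.512, 0.445, 0.493, 0.488 and 0.522% of the peak reads of replicates 1 to 5, and Itgav 0.307, 0.287, 0.346, 0.361 and 0.383%. A read can count in more than 1 Itgb1 subpeak, so the Itgb1 shares are compared between libraries and not with other genes. Itga2 held 0.154, 0.0901, 0.183, 0.111 and 0.118%. The undiluted library did not stand apart for these 3 genes, although it held 1954 reads in peaks and the others 17760 to 26026. Itga3 was uneven, with 0.716% in the undiluted library (14 reads, 95% Wilson interval 0.427 to 1.2%) and 0.130, 0.0326, 0.0768 and 0.0367% in replicates 2 to 5. The undiluted library gave 18.9% of all reads in Itga3 peaks, against 2.06% of reads over all 3' UTR peaks.

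**Figure D5:**
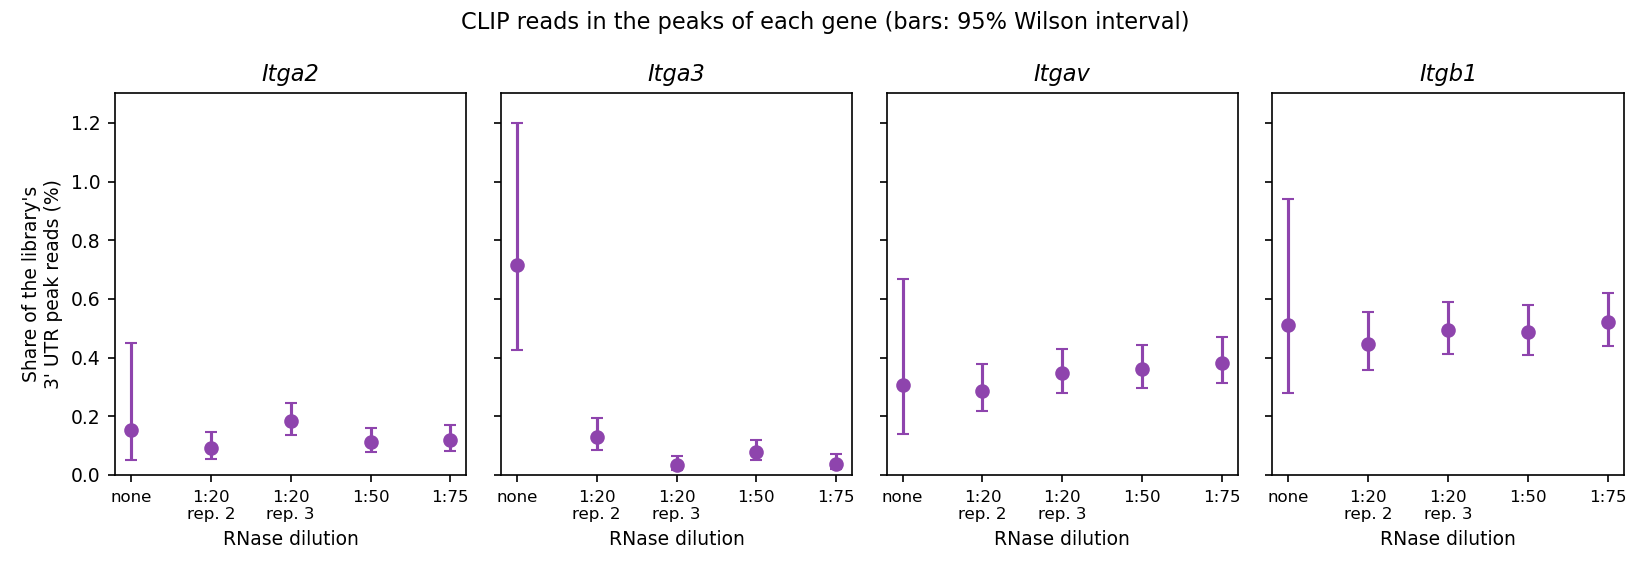
Share (%) of each CLIP library's 3' UTR peak reads that fell in the peaks of Itga2, Itga3, Itgav and Itgb1, by RNase dilution; bars are 95% Wilson intervals, which cover counting error only. Itgb1 lies between 0.445 and 0.522% in all 5 libraries, whereas Itga3 is at 0.716% in the undiluted library and at 0.0326 to 0.130% in the others. Reads can count in more than 1 Itgb1 subpeak, so the Itgb1 shares can be too high and their intervals too narrow.

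The genes around these receptors were read from 7 lists, also chosen with earlier results of these data known. The values below are log2 fold changes by edgeR's quasi-likelihood test and Benjamini-Hochberg adjustment over all genes. The shares called over all genes, against which each list's counts stand, were 22.0% higher and 21.7% lower in RNA and 8.76% higher and 7.38% lower in footprints. Among the other integrin alpha chains 4 of 14 could be tested in RNA and 3 rose: Itga6, of the hemidesmosome (0.55 ± 0.15), the laminin-binding Itga7 (1.95 ± 0.40) and the collagen-binding Itga10 (1.75 ± 0.38). The last pair averaged 3.81 and 2.70 CPM in knockdown and 1.05 and 0.791 CPM in control libraries, which is low. In footprints Itga6 alone could be tested and rose (0.39 ± 0.13, edgeR adjusted p = 0.0381). The Itga6 RNA call ended without control replicate 1 (edgeR adjusted p = 0.0671). Its footprint call ended in 8 of 15 alternatives, among them the fits without any 1 of knockdown replicates 1 (edgeR adjusted p = 0.111), 2 (0.0568) and 3 (0.125) or without control replicate 1 (0.24) or 2 (0.0987).

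Of the other beta chains Itgb4, the partner of Itga6, rose in RNA (0.57 ± 0.13) and footprints (0.55 ± 0.13). Itgb7, known from lymphocytes, fell in RNA (-0.76 ± 0.11) and footprints (-0.53 ± 0.16). The Itgb7 footprint call ended without knockdown replicate 1 (edgeR adjusted p = 0.252) or control replicate 1 (0.112). Itgb2, the leukocyte beta chain, was near its limit of detection, at 0.866 CPM in knockdown and 0.379 CPM in control RNA, and did not pass (edgeR adjusted p = 0.0542).

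The ligands of these integrins were largely higher. In RNA 15 of 18 tested ligand genes rose and 1 fell (median log2 fold change 0.73), and in footprints 13 of 17 rose and none fell (median 0.86). Thbs1, a matricellular ligand, rose by 2.45 ± 0.15 in RNA and by 2.02 ± 0.14 in footprints. Ctgf, which binds several integrins, rose by 1.25 ± 0.11 in RNA. Lama3, a chain of laminin-332, rose by 1.40 ± 0.14 in RNA and 1.22 ± 0.14 in footprints, and Lama5, a chain of laminin-511, by 1.28 ± 0.14 in footprints. The ligand that fell was Spp1 (osteopontin), at -0.93 ± 0.32 in RNA and at a low level of 1.56 CPM in knockdown and 2.91 CPM in control libraries. The Spp1 call ended without knockdown replicate 1 (edgeR adjusted p = 0.0521), 2 (0.0506) or 3 (0.0811) or control replicate 2 (0.113).

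Of the cytoplasmic activators and inhibitors of integrins, which include proteins that bind the beta tail and regulators upstream of them, 11 of 17 rose in RNA and 6 of 15 in footprints, and none fell. Flna, a filamin that competes with talin for the beta tail, rose by 1.43 ± 0.15 in RNA and 1.51 ± 0.14 in footprints. Fermt2 (kindlin-2), an activator, rose by 1.90 ± 0.21 in RNA. Tns3, a tensin, rose by 1.02 ± 0.17 in footprints.

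Of the adhesion signalling genes 8 of 22 rose in RNA and 1 fell (median 0.22), and in footprints 4 of 21 rose (median 0.11). The RNA increases numbered 5 without knockdown replicate 1. The 4 in footprints were Parvb (1.87 ± 0.31), a parvin of the ILK complex, Bcar1 (0.55 ± 0.13), the p130Cas scaffold, Actn1 (0.53 ± 0.13), an actin crosslinker, and Vcl (0.47 ± 0.13), vinculin. The Vcl footprint call ended without knockdown replicate 2 (edgeR adjusted p = 0.0601) or 3 (0.0697) or control replicate 1 (0.0733). In RNA Parvb (1.15 ± 0.22) and the scaffold Git1 (0.64 ± 0.10) rose, and the kinase Fyn fell (-0.82 ± 0.16).

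Among integrin trafficking genes more fell than rose. In RNA 6 of 16 fell and 3 rose, and in footprints 4 of 15 fell and none rose. Clic3, known for recycling of alpha5 beta1 from late endosomes, fell by 1.59 in RNA (SE 0.15) and by 1.78 in footprints (SE 0.19). Rab25, a GTPase that binds beta1 tails, fell by 0.87 and 0.68 (SE 0.11 and 0.14). Hax1, linked to uptake of alpha-v beta6, fell by 1.02 in RNA and 0.61 in footprints (SE 0.12 and 0.19). Rab11a, of the recycling endosome, fell by 0.64 in footprints (SE 0.14). The Hax1 footprint call ended without knockdown replicate 1 (edgeR adjusted p = 0.305) or control replicate 1 (0.0933) or 3 (0.0551). The 3 genes called higher in RNA were Rab11fip1 (0.44 ± 0.16), Dab2 (1.77 ± 0.63) and Numb (0.43 ± 0.17). This count was at about the share over all genes and was 0 to 3 when any 1 library was left out. Dab2 RNA was low, at 1.22 CPM in knockdown and 0.374 CPM in control libraries. Rab11fip1 did not pass edgeR's test without knockdown replicate 1 (adjusted p = 0.0975) or 2 (0.157) or control replicate 1 (0.149) or 3 (0.0802). Dab2 did not pass it without knockdown replicate 1 (0.0663), 2 (0.0677) or 3 (0.0705) or control replicate 1 (0.0949), nor did Numb without knockdown replicate 1 (0.07), 2 (0.182) or 3 (0.0851) or control replicate 1 (0.191) or 2 (0.0913).

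Among membrane partners 3 of 14 rose and 6 fell in RNA, and 2 rose and 2 fell in footprints. The increases in RNA were at about the share over all genes. The RNA decreases numbered 3 without knockdown replicate 2 or 3. Epha2, an ephrin receptor, rose by 1.19 ± 0.14 in RNA and 1.09 ± 0.14 in footprints, and Plaur, the urokinase receptor, by 0.68 ± 0.11 and 0.86 ± 0.15. Lgals3, a galectin that crosslinks integrin glycans, fell by 0.82 and 0.67 (SE 0.13 and 0.14). Slc3a2, the CD98 heavy chain that binds beta1, fell by 0.73 and 0.54 (SE 0.13 and 0.15). Without knockdown replicate 1 or 3 the Slc3a2 footprint difference did not pass (edgeR adjusted p = 0.108 and 0.153). The third RNA increase, Cav1 (0.33 ± 0.12), did not pass without knockdown replicate 1 (0.15), 2 (0.0609) or 3 (0.0591) or control replicate 1 (0.0696) or 3 (0.0653) in the same edgeR test.

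Translational efficiency was called changed in none of the 92 genes tested from these lists, where the share over all genes was 0.203%, by edgeR's quasi-likelihood test and Benjamini-Hochberg adjustment. Of these, 9 had an unadjusted p under 0.05, and DESeq2 called 0 and limma-voom 1.

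Markers of other cell types that express integrins were at low levels and in part differed between the groups. Fibroblast markers summed to 8.97 to 10.2 CPM of RNA in knockdown and 4.54 to 7.55 CPM in control libraries. Of those 9 markers 6 had no read in any RNA library, Col1a2 and Col3a1 among them, and Pdgfra (1.88 CPM in knockdown and 0.810 CPM in control) rose. Most of the fibroblast sum was Twist2 (7.22 CPM in knockdown and 4.91 CPM in control), which did not pass edgeR's test (adjusted p = 0.0689). Smooth muscle markers summed to 6.01 to 8.52 CPM in knockdown and 2.48 to 4.50 CPM in control libraries, nearly all of it Acta2, which rose. Endothelial markers summed to 3.52 to 5.20 CPM in knockdown and 1.38 to 2.57 CPM in control libraries, and immune markers to 8.30 to 13.4 CPM and 16.0 to 18.6 CPM. The endothelial sum was mostly Kdr (mean 3.73 CPM in knockdown and 1.57 CPM in control). The immune sum was nearly all Cd68 (mean 9.86 CPM in knockdown and 16.8 CPM in control). Melanocyte sums (1.73 to 3.12 CPM in knockdown and 0.856 to 2.01 in control) and platelet sums (2.29 to 4.13 and 3.49 to 3.94) overlapped between the groups. The part of these markers in the integrin changes was not tested.

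Genes with a course over the libraries like that of a member were ranked among 7832 genes by the root mean square difference of centred log2 CPM over the 12 libraries. Among the 5 genes nearest to Itga2 were St5 (0.281), the spectrin gene Sptbn1 (0.369), Thbs1 (0.397) and the proteoglycan gene Vcan (0.411). Of the members Itgav came nearest to Itga2, at rank 106. Among the 5 nearest to Itgb1 were Ltbp1 (0.0800), which binds latent TGF-beta, the phosphatase gene Ptprk (0.0906), Mms22l (0.104) and Lrrc8d (0.106). Itga3 was the nearest member to Itgb1, at rank 243. Ltbp1, Ptprk and Mms22l carried no 3' UTR peak.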

How the data were processed

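The members and gene lists were chosen with earlier results of these data known. RNA and footprint values are counts of reads per gene over coding sequence as the authors deposited them, for which the submitters' processing notes name TopHat, HTSeq, DESeq and mm10 with no versions. CLIP peak heights are signal in reads and per-library values are read counts, both as the authors deposited them, from pooled libraries; reads were processed with cutadapt and Novoalign per the submitters' processing notes, and the peak caller is not given in the sources used here. RNA lines that name no gene (32.3 to 35.2% without a feature, 13.4 to 24.5% not unique) stayed out of library sizes. The share of reads that were not unique was 19.8 to 24.5% in knockdown and 13.4 to 17.4% in control libraries.

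Counts were fitted over all genes in R 4.3.3 with edgeR 4.0.16 (filterByExpr, minimum count 10 and total 15, TMM, robust quasi-likelihood test, Benjamini-Hochberg threshold 0.05). RNA and footprints were fitted apart and translational efficiency as the interaction over 12 libraries. Fold changes are Msi2 shRNA over scrambled shRNA. Alternatives used DESeq2 1.42.0, limma 3.58.1, other scalings and filters, and each library left out. The fits were also run on simulated counts drawn independently for each library, which cannot cover a factor shared by libraries. The outcome of that run is not given here. Named genes are the members, Msi2, the 3 genes of each list with the smallest p in each assay, any gene of a count of 5 or fewer, and the 5 genes nearest to Itga2 and to Itgb1. Some genes that this rule names are not reported here. Gene positions are those of RefSeq (GRCm38.p6). Coding lengths were not used here, so levels are compared within a gene and not per kb as planned. Replicates correlated at 0.984 to 0.99 in RNA and 0.951 to 0.98 in footprints, and no pair agreed within sampling noise (chi-square over degrees of freedom 1.62 to 30.2).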

Additional observations from a re-analysis of the deposited data

Results flagged for a closer look

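The share of 3' UTR peak reads in Itga3 was 0.716% in CLIP replicate 1, the library with undiluted RNase, and 0.0326 to 0.130% in the other 4 libraries. Its gap to the next library was 0.858 of the whole range, above Dixon's critical value of 0.71 for 5 samples. The same measure was 0.318 for Itga2, 0.231 for Itgav and 0.559 for Itgb1, and chance marks about 1 in 20 groups. The value rests on 14 of 1954 reads. Among 365 genes with at least 50 reads in 3' UTR peaks, the undiluted library gave a median of 1.59% of a gene's reads, and 3 genes had a larger share than the 18.9% of Itga3.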

How the results depend on the processing

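In RNA the calls of Itga2, Itga3, Itgav, Itgb5 and Itgb6 held in all 14 alternatives, and in footprints those of Itga2, Itga3, Itgav, Itgb1 and Itgb6 held in all 15, in the same direction. Itga5 RNA held in 7 and Itgb1 RNA in 11 of 14. Members called numbered 5 to 7 in RNA, 5 in footprints and 0 to 1 in translational efficiency when each library was left out. Under the replicate block the counts were 6, 5 and 0. Over all genes the block gave 2042 higher and 1932 lower in RNA, 789 and 705 in footprints and 1 and 2 in translational efficiency. The labels do not say what a replicate number shares. Deviations from the group mean of same-numbered libraries correlated at -0.28 to 0.057 in RNA and -0.0025 to 0.05 in footprints. In RNA, differently numbered libraries gave -0.11 to 0.31, the highest for knockdown replicate 2 with control replicate 3. Whether differently numbered libraries share a factor was not tested, and the block does not cover it. No translational efficiency value of a member that turned sign was called: Itga5 was at -0.012 with upper-quartile factors, -0.019 with limma-voom, -0.012 without a filter and -0.036 with a 10 CPM filter; Itga2 at -0.0007 with DESeq2, -0.0062 with the 10 CPM filter and -0.014 with the replicate block; Itgb5 at -0.017 with limma-voom; Itgb6 at 0.085 with the span trend removed. Leaving out each library gave -0.55 to 0.39 for Itga2, -0.19 to 0.15 for Itga5, -0.04 to 0.17 for Itgb5 and -0.25 to 0.029 for Itgb6. The cause was not tested. The 28 peaks became 15 at a height of at least 20, 16 with reads in all 5 CLIP libraries and 24 to 26 without 1 library, always in 4 members; both filters remove peaks by construction.

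Over all genes, translational efficiency calls were 60 higher and 38 lower with DESeq2, 68 and 18 with limma-voom, 46 and 78 without a filter, 5 and 13 with upper-quartile factors, 3 and 11 with the 10 CPM filter, 84 and 56 from separate fits and 0 without footprint libraries under 1000000 counts, against 14 and 8. That last setting leaves 1 knockdown and 2 control footprint libraries, so the lone knockdown library is assumed to vary like the others. Footprint calls were 481 and 373 with DESeq2 and 506 and 458 without those libraries, against 786 and 662. Removing the trend with genomic span moved the RNA change to 0.28 for Itgb1, 0.51 for Itgb6 and -0.62 for Itgb5. Footprint to RNA ratios and subunit ratios, with alternatives chosen after seeing the data, moved by less than the spread of the libraries. Levels under plain library totals moved past it for 2 of 32 values. Of the named list genes, 19 of 26 in RNA and 14 of 21 in footprints had the same call in every alternative. Without the footprint libraries under 1000000 counts, which leaves 1 knockdown library, Bcar1 (adjusted p = 0.0519), Rab25 (0.0563) and Vcl (0.273) did not pass edgeR's test in footprints, and Hax1 (0.0978), Itgb7 (0.0811) and Itga6 (0.0612) did not with DESeq2.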
